A study of Mus musculus with 6 samples.

Results

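The 10 genes described here encode receptors and ligands that restrain or support T cell responses, and a transcription factor that goes with long stimulation: Pdcd1, Cd274, Ctla4, Lag3, Tigit, Havcr2, Tox, Icos, Cd40lg and Tnfrsf4. They were taken by symbol from the 31054 features counted in each library, and all 10 were found, each with 1 feature. They were measured by droplet-based single-cell RNA sequencing of the lungs of 6 male C57BL/6 mice of 21 months, with 1 library per mouse. The 3 mice of the group labelled p16-DTR had the genotype p16-CreERT2/R26-LSL-DTR, in which a Cre recombinase driven by p16 can switch on the diphtheria toxin receptor in cells that express p16. The 3 control mice carried p16-CreERT2 without the receptor, so both groups had the Cre driver, and both received tamoxifen for 5 days, then diphtheria toxin for 5 days after 2 weeks, and recovered for 2 weeks. Each library was a mixture of 20000 sorted CD45- cells and 9000 sorted CD45+ cells, so the share of immune cells in a library was set by the sort. The question was which of these genes differed in the lung's T cells, and in the cells that carry their ligands, after the treatment meant to remove cells with high p16.

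T cells are activated through the antigen receptor together with costimulatory receptors, and are held back by inhibitory receptors that are themselves switched on by stimulation. PD-1, CTLA-4, LAG-3, TIGIT and TIM-3 are the inhibitory receptors best known from cancer therapy, where antibodies against PD-1, its ligand PD-L1, or CTLA-4 are in use. In aged tissues, CD8 T cells that express Gzmk, Pdcd1 and Tox accumulate, and regulatory T cells carry high CTLA-4, ICOS and OX40.

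The libraries held 13482 to 17332 cell barcodes and 254200305 to 344421685 unique molecular identifiers (UMIs), and each pair of libraries had 59 to 94 barcodes in common. After filtering, 13025 to 16884 cells remained per library, 712 to 1532 of them T cells, and 16.6% to 19.8% of cells stayed in no gate. Lung cell types were present in every library, with 2594 to 6587 fibroblasts, 2857 to 4455 general capillary cells and 87 to 142 alveolar type 2 cells by their markers. Levels are given as CPM, UMIs of a gene per 1000000 UMIs of all genes in the same cells of a library. Cdkn2a, the gene of p16, went against the group label: it reached 7.10, 8.57 and 7.31 CPM under the p16-DTR label and 1.15, 2.6 and 2.84 in the controls. UMIs of the tdTomato feature numbered 89, 74 and 94 under the p16-DTR label and 0 in each control. Directions below therefore hold for the libraries as labelled. The 3 mice per group are the replicates, and levels are given in the order p16-DTR 1, 2, 3 and control 1, 2, 3.

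Cells were sorted into 24 gates by the UMIs of marker genes, none of which is among the 10, and each gate had at least 20 cells in every library. Of these, 9 were T or NK cell gates. The conventional CD4 gate (Cd4, no Foxp3, Cd8 or type 17 genes) held 128 to 343 cells per library, the regulatory CD4 gate (Foxp3) 27 to 60, and the gamma-delta gate (Trdc and Tcrg-C) 59 to 96. The type 17 gate (at least 2 UMIs summed over type 17 genes that include Il17a, Il17f and Il23r, no Foxp3 or Cd8, with or without Cd4) held 151 to 209. Cells that met the gamma-delta rule were left out of the type 17 gate. The CD8 cells were divided into a Gzmk gate of 76 to 268 cells, a naive-like gate of 26 to 112 (markers that include Ccr7 and Lef1, no Gzmk or Ccl5) and the other CD8 cells, 65 to 379. 

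Ctla4 and Tigit were the 2 genes that the main test, edgeR within each of the 24 gates, called between the groups, both in the type 17 gate, and their promoters are shown for that reason. Ctla4 (ENSMUSG00000026011, chr1:60887000-60915832, + strand, GRCm38) encodes the receptor that competes with CD28 for CD80 and CD86. Tigit (ENSMUSG00000071552, chr16:43648867-43664146, - strand) encodes a receptor for CD155, the product of Pvr. The 250 bases before the RefSeq start of each gene (GRCm38.p6) lie at chr1:60908775-60909024 on the + strand and chr16:43664185-43664434 on the - strand, and for Ctla4 this lies inside the longer GENCODE gene. Capitals mark GGAAA on either strand (here TTTCC on the strand shown), the core letters bound by NFAT, a factor switched on by antigen receptor signals.
Ctla4: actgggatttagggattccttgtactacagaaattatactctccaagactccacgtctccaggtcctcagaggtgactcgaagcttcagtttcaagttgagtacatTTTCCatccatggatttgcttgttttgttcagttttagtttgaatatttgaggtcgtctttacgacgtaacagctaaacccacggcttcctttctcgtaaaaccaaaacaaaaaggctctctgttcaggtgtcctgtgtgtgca
Tigit: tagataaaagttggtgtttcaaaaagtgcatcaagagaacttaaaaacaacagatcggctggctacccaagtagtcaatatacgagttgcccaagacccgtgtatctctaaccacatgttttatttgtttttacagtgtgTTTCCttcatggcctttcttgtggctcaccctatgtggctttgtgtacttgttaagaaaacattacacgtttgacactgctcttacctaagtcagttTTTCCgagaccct
The Ctla4 window held 1 match and the Tigit window 2, which is a description of letters only. Of the 32851 promoters of this length in the table, 55.6% held at least 1. The promoter table used here was matched for 6 of the 10 genes (Pdcd1, Cd274, Ctla4, Tigit, Havcr2 and Tnfrsf4), and 5 of the 6 held a match.

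Among inhibitory receptors, Pdcd1 (ENSMUSG00000026285, chr1:94038305-94052553), which encodes PD-1, had its highest mean level in gamma-delta T cells, at 267 ± 71.2 CPM (SD, n = 6), followed by Gzmk CD8 cells at 123 ± 18.9, conventional CD4 cells at 85.2 ± 25.3 and regulatory CD4 cells at 71.1 ± 28.5. The ranges over libraries of these neighbours overlapped; in the gamma-delta gate they ran from 139 to 330 and in the Gzmk CD8 gate from 103 to 155. Gzmk CD8 cells were above naive-like CD8 cells (mean level 0.736) in 6 of 6 mice by an exact two-sided sign-flip permutation test (p 0.0312, adjusted p 0.0357 over the 8 such tests made), which is the smallest p that 6 mice allow. After each cell was thinned to 3000 UMIs, 43.0% of gamma-delta cells and 26.5% of Gzmk CD8 cells had a Pdcd1 UMI, against 70.8% and 52.8% without thinning. In fibroblasts, which lack PD-1, 0 of 22582 thinned cells had one, which allows a share of up to 0.0133% (3 counts, counting error only), and the unthinned share was 0.0588%, at a median depth of 23418 UMIs per cell against 14002 in Gzmk CD8 cells.

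Ctla4 was highest in regulatory CD4 cells in every library. Its level there was 2635 ± 329 CPM (SD, n = 6), with no overlap with conventional CD4 cells at 854 ± 135, a difference present in 6 of 6 mice (exact permutation test, adjusted p 0.0357). Tigit did not separate these gates to the same extent: its level was 98.3 ± 21.0 in regulatory and 85.4 ± 25.0 in conventional CD4 cells, with 5 of 6 mice higher in the regulatory gate (exact permutation test, p 0.0938). Its highest mean was in Gzmk CD8 cells, at 118 ± 26.6, and NK cells held 53.3 ± 5.66.

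Lag3 (ENSMUSG00000030124, chr6:124904361-124911705), whose product binds MHC class II, was low throughout. Its mean levels were 27.8 ± 20.5 CPM in conventional CD4 cells and 21.8 ± 12.7 in Gzmk CD8 cells, which overlapped. Gzmk CD8 cells exceeded naive-like CD8 cells (1.08) in 6 of 6 mice (exact permutation test, adjusted p 0.0357). A Lag3 UMI was found in 6.63% of Gzmk CD8 cells after thinning and in 1.47% of fibroblasts, or 18.9% and 8.63% without thinning, so the fibroblast share lay well above that of Pdcd1 in the same cells.

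Havcr2 (ENSMUSG00000020399, chr11:46454935-46481255), which encodes TIM-3, was mainly a myeloid transcript here. Nonclassical monocytes held 408 ± 31.0 CPM, with no overlap with classical monocytes at 163 ± 21.8 or interstitial macrophages at 141 ± 22.0, while those last 2 gates overlapped. Among T cells the mean was highest in Gzmk CD8 cells at 35.7 ± 10.3, below every macrophage and monocyte library.

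Tox (ENSMUSG00000041272, chr4:6686353-6991557) encodes a nuclear factor needed for exhausted CD8 T cells and also expressed in several CD4 lineages. Regulatory CD4 cells led with 1775 ± 180 CPM, overlapping Gzmk CD8 cells at 1327 ± 280, which in turn overlapped conventional CD4 cells at 1050 ± 268. Gzmk CD8 cells were above naive-like CD8 cells (202 ± 56.1) in 6 of 6 mice (exact permutation test, adjusted p 0.0357).

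The costimulatory receptors and CD40 ligand had another order. Icos (ENSMUSG00000026009, chr1:60977927-61000320), a relative of CD28, was highest in the type 17 gate at 1394 ± 98.3 CPM, with no overlap with regulatory CD4 cells at 954 ± 92.2. Gamma-delta cells, at 879 ± 200, overlapped the regulatory gate, and conventional CD4 cells, at 516 ± 57.9, were below the regulatory gate in 6 of 6 mice (exact permutation test, adjusted p 0.0357). Cd40lg (ENSMUSG00000031132, chrX:57212143-57224042), the helper signal to B cells, macrophages and dendritic cells, likewise had its highest mean in the type 17 gate, at 365 ± 31.8, with no overlap with conventional CD4 cells at 162 ± 29.9. Its level in Gzmk CD8 cells was 1.59, lower than in conventional CD4 cells in 6 of 6 mice (exact permutation test, adjusted p 0.0357). Tnfrsf4 (ENSMUSG00000029075, chr4:156013843-156016612), which encodes OX40, reached 377 ± 33.3 in regulatory and 138 ± 23.1 in conventional CD4 cells, with no overlap and the same direction in 6 of 6 mice (exact permutation test, adjusted p 0.0357). In Gzmk CD8, naive-like CD8, other CD8, gamma-delta and NK cells its means were between 0.719 and 3.7.

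Cd274 (ENSMUSG00000016496, chr19:29367455-29388095) encodes PD-L1, the ligand of PD-1, and was read in far more gates than the receptors. Nonclassical monocytes held 209 ± 29.2 CPM, B cells 159 ± 26.9, regulatory CD4 cells 146 ± 36.1 and neutrophils 113 ± 17, each overlapping its neighbour. The classical monocyte libraries, at 12.1 to 16.6, all lay below the nonclassical ones, at 171 to 255.

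**Figure D1:**
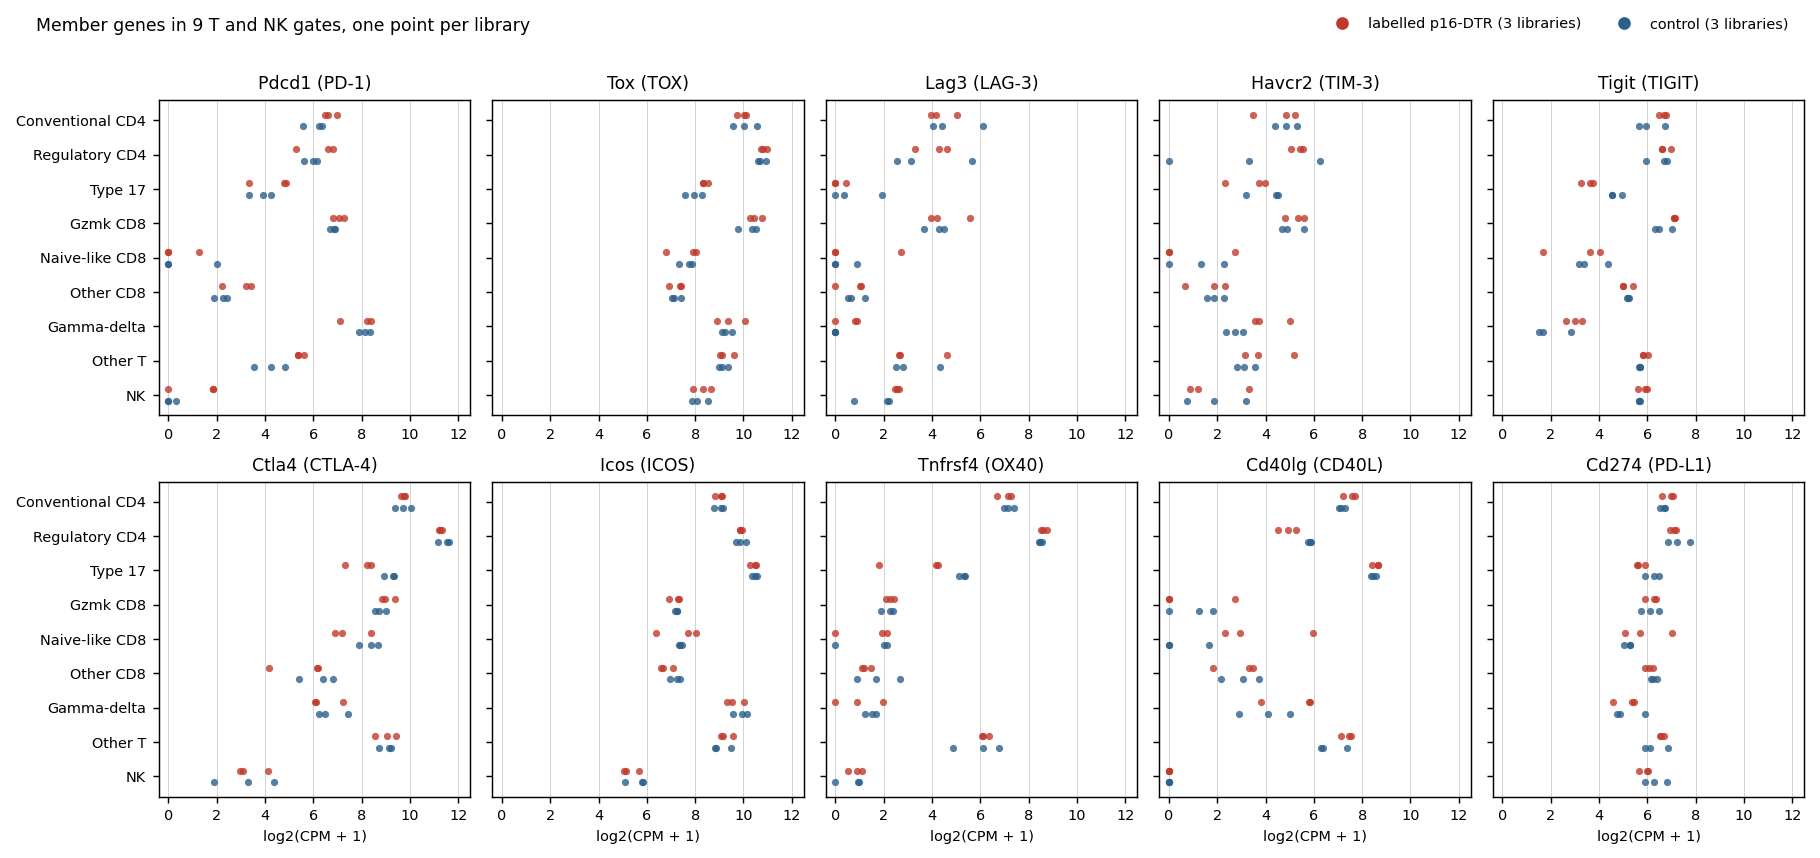
Level of each of the 10 genes in the 9 T and NK gates, as CPM on a log2(value + 1) axis; each point is 1 library, coloured by group. Ctla4 and Tnfrsf4 lie highest in the regulatory CD4 gate, Icos and Cd40lg in the type 17 gate and Pdcd1 in the gamma-delta gate.

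**Figure D2:**
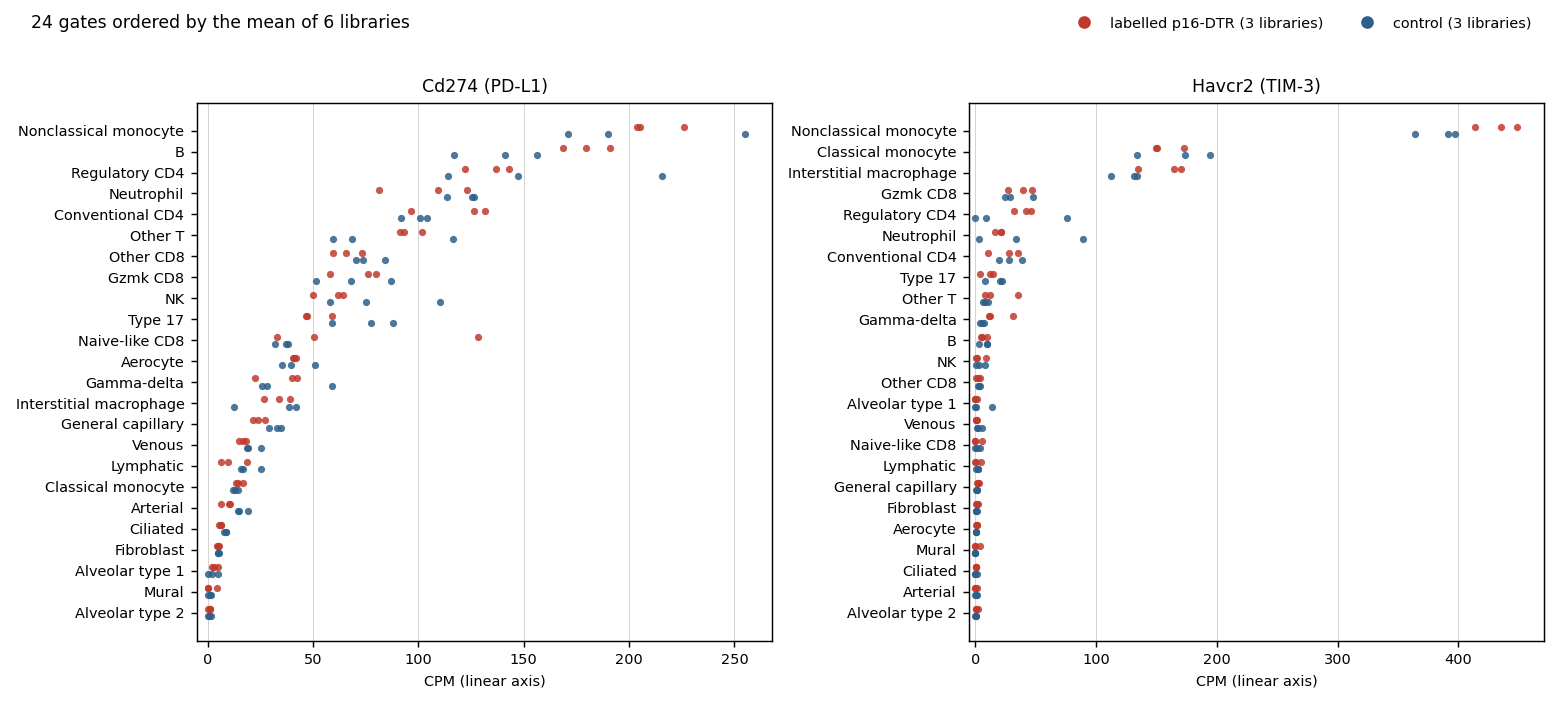
Levels of Cd274 and Havcr2 in all 24 gates, in CPM on linear axes, with 1 point per library and gates ordered by the mean of 6 libraries. Nonclassical monocytes lead for both genes, at means of 209 and 408.

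Tox was found more often in cells with a Pdcd1 UMI in most T cell gates. In cells thinned to 3000 UMIs, Tox was detected in 91.4% of conventional CD4 cells with a Pdcd1 UMI and 62.6% of those without (means of 6 libraries), and the first share was higher in 6 of 6 libraries. The shares were 92.9% and 75.1% in Gzmk CD8 cells and 82.1% and 58.9% in gamma-delta cells, again in 6 of 6 libraries each. In regulatory CD4 cells they were 95.0% and 84.6%, in the type 17 gate 57.7% and 41.5% and in the other T gate 75.7% and 46.3%, higher in 5 of 6 libraries each, and in other CD8 cells 81.7% and 27.6% (6 of 6). NK and naive-like CD8 cells had 4 and 1 cells with a Pdcd1 UMI, too few to compare. Tigit was found in 33.9% of conventional CD4 cells with a Pdcd1 UMI and 17.3% without (6 of 6 libraries). In Gzmk CD8 cells these Tigit shares were 30.0% and 28.9% (4 of 6 libraries). Cells are not replicates, and no p was computed for these shares.

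Across the 24 gate means, on the log2(CPM + 1) scale, the genes of 13919 whose pattern was most like each of the 10 were taken as a description of points that share libraries. Tigit was matched most closely, by Sh2d1a (Pearson's r 0.994), followed by Icos with Camk4 (0.982), Ctla4 with Slamf1 (0.968), Cd40lg with Tnfsf11 (0.959) and Havcr2 with Nlrp1b (0.954). The best matches of the others were Izumo1r for Tnfrsf4 (0.927), Podnl1 for Pdcd1 (0.908), Parvg for Cd274 (0.908), Slain1 for Tox (0.903) and the predicted gene Gm43055 for Lag3 (0.794). Ranked next were Cd28 for Tigit (0.963), Ccr4 for Cd40lg (0.951) and Trac for Ctla4 (0.957).

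The comparison of the libraries labelled p16-DTR with the controls gave few called differences in these genes. In the 9 T and NK gates, 71 of the 90 pairs of gene and gate had enough counts to be tested, and 2 were called by edgeR at an adjusted p of 0.05, Tigit and Ctla4 in the type 17 gate, both lower. Over all genes in these gates, 0.802% of 84001 tests were called. Of the 71 pairs, 40 had a positive and 31 a negative log2 fold change (p16-DTR over control). An unadjusted p below 0.05 was found in 17 of the 71, a larger share than the 9.64% of all tests, though the pairs share libraries. In 12 pairs, or 7 with p16-DTR higher and 5 with it lower, the groups did not overlap, against 15.2% of all tests (7.87% and 7.3%). The median log2 fold change of the tested genes was -0.58 in the type 17 gate, where that of all genes was 0.01, and 0.20 in the remaining T cells in no named subset (the other T gate), where all 10 were higher and 0 were called. DESeq2, run as the other tool, called 3 pairs in T and NK gates, the same pair of genes and Cd274, all in the type 17 gate. Among all 10480 genes of that gate it called 623. With no filter on low counts edgeR called 14 pairs in these gates. Its calls over all genes there rose as well, by the counts given in the section on processing, so the rise was not limited to the 10 genes. Pdcd1 in conventional CD4 cells and in the other T gate, Tigit in Gzmk CD8 cells, Ctla4 in naive-like CD8 cells and Havcr2 in gamma-delta cells were among them (adjusted p 0.0250, 0.000621, 0.0426, 0.000109 and 0.0273).

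**Figure D3:**
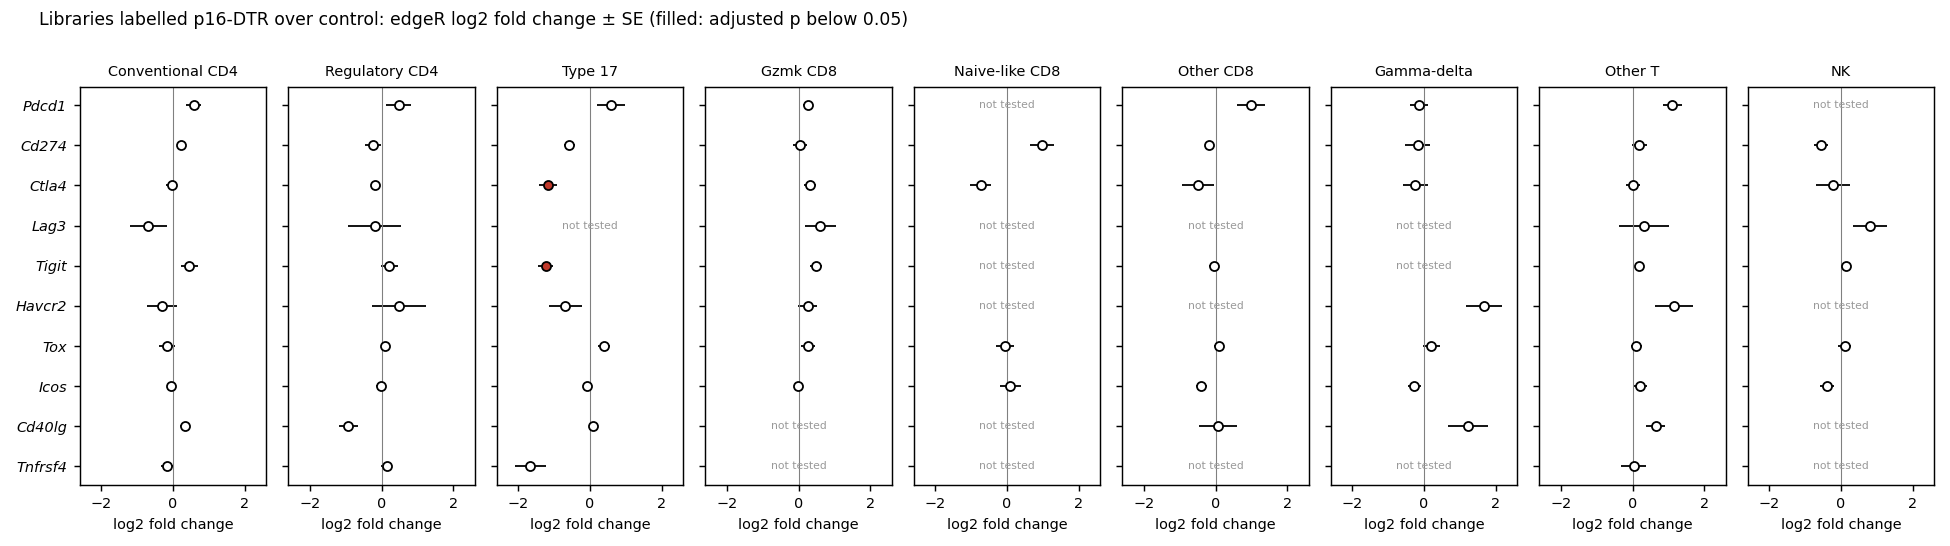
Log2 fold changes with standard errors from edgeR for the 10 genes in the T and NK gates, libraries labelled p16-DTR over control; filled points have an adjusted p below 0.05. The only filled points are Tigit (-1.24) and Ctla4 (-1.18) in the type 17 gate.

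In the type 17 gate, Tigit fell. Its levels were 11.4, 8.55 and 12.3 CPM under the p16-DTR label and 22.5, 29.6 and 22.1 in the controls. All 3 libraries labelled p16-DTR lay below all 3 controls, with a log2 fold change of -1.24 (SE 0.21, edgeR adjusted p 0.0129). Ctla4 fell as well: its levels were 338, 156 and 301 against 632, 655 and 482, without overlap, at a log2 fold change of -1.18 (SE 0.25, edgeR adjusted p 0.0268). This gate had many calls: 4.95% of its 10480 genes were called, 3.25% in the direction of these 2 genes, and 26.3% did not overlap. Each call was lost when 1 of 3 libraries was left out, Tigit without p16-DTR 2 (adjusted p 0.0522), p16-DTR 3 (0.0583) or control 2 (0.0509), and Ctla4 without p16-DTR 3 (0.0904), control 2 (0.0865) or control 3 (0.0515). With the replicate number as a block the adjusted p was 0.0512 for Tigit and 0.0580 for Ctla4.

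Tnfrsf4 and Cd274 had values on the same side in this gate without passing the test. Tnfrsf4 was at 17.9, 2.53 and 17.1 CPM against 33.8, 40.6 and 38.8 (log2 fold change -1.67, SE 0.43, edgeR adjusted p 0.0600). Cd274 was at 47.2, 58.9 and 46.8 against 59.1, 77.4 and 87.8 (log2 fold change -0.58, SE 0.16, edgeR adjusted p 0.0685). Neither gene overlapped between the groups. Tox had the opposite sign, at 316, 316 and 367 against 315, 190 and 244 (log2 fold change 0.39, adjusted p 0.196), the lowest p16-DTR library being next to the highest control. Leaving out control 1 gave adjusted p values of 0.0126 for Cd274 and 0.0208 for Tox, and leaving out p16-DTR 2 gave 0.0246 for Tnfrsf4. Each was the 1 of 6 such fits that passed, and in the others the adjusted p reached 0.222 for Cd274, 0.443 for Tox and 0.162 for Tnfrsf4. Tnfrsf4 was also called with the highest 5% of UMIs left out (log2 fold change -2.14, adjusted p 0.00793), with other lineages at most 1 marker (0.0411), with equal cells per library (0.0438) and with no filter on low counts (0.000325), while DESeq2 gave 0.253. Icos, the gene for which this gate ranks first, was at 1452, 1422 and 1232 against 1500, 1434 and 1322 (log2 fold change -0.08, adjusted p 0.669).

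The makeup of the type 17 gate differed between the groups in the same libraries. Cells with a Cd4 UMI made up 17%, 2.44% and 9.27% of the gate under the p16-DTR label and 40.2%, 66.0% and 54.5% in the controls. Thinned to 3000 UMIs per cell, which left out 14 of the gate's 1137 cells, these shares were 10.3%, 2.03% and 4.67% against 24.6%, 43.6% and 35.1%, with 0.122% of thinned fibroblasts as background (0.812% unthinned). The mean of the median depths was 16072 UMIs per cell in the gate and 23617 in fibroblasts. Cells with a UMI of Il17a or Il17f, 2 of the genes that define the gate, were 12.1%, 5.08% and 6.67% against 37.7%, 40.0% and 37.5% after thinning (0.0822% in fibroblasts). The type 17 gate as a share of T cells was 20.7%, 15.9% and 9.86% against 27.8%, 27.7% and 17.1%.

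Divided by Cd4, a division chosen after these values were seen, the gate gave different levels on its 2 sides. In cells without a Cd4 UMI, Ctla4 was at 175, 129 and 129 CPM against 192, 227 and 153 in the controls (log2 fold change -0.39, edgeR adjusted p 0.535), and Tigit at 5.89, 7.52 and 6.32 against 5.26, 6.54 and 3.81 (log2 fold change 0.37, adjusted p 0.862). Both genes overlapped between the groups here, the Ctla4 difference was smaller than in the whole gate, that of Tigit had the opposite sign, and 0.0209% of genes were called. In cells with a Cd4 UMI, Ctla4 was at 948, 977 and 1844 against 1250, 845 and 724, Tigit at 32.2, 39.9 and 65.6 against 46.6, 39.9 and 35.5, and Tnfrsf4 at 79.7, 29.9 and 149 against 80.0, 58.2 and 65.5. Those values overlapped between the groups and were not tested, since p16-DTR 2 and p16-DTR 3 had 5 and 14 such cells, under the minimum of 20 per library. Every library had more Ctla4 in the cells with a Cd4 UMI than in those without.

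Divided instead by Il17a and Il17f, the cells without such a UMI gave log2 fold changes of -1.01 for Tigit (adjusted p 0.119) and -0.70 for Ctla4 (adjusted p 0.203) in the edgeR test, which called 0.89% of genes there. The values of other cell types' markers in the type 17 gate also moved: the sum of the 6 myeloid markers was 12.3 to 31.8 CPM under the p16-DTR label and 44.7 to 67.4 in the controls, and none of the 6 was at 0. The 6 neutrophil markers summed to 22.5 to 30.7 against 35.8 to 82.9, with none at 0. The 6 NK markers summed to 14.6 to 28.0 against 4.85 to 8.0, and 1 of them was at 0 in all libraries. The 6 T cell markers, all of which enter the T cell rule of the gate, summed to 3759 to 3779 against 3245 to 3339. The sums of these 4 lists did not overlap between the groups, while the 6 B cell markers did, at 7.51 to 16.2 against 4.32 to 11.1. The part of these cells in the differences was not tested.

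Other receptors on T cells changed in both directions in the type 17 gate. Of 13 further receptors, 10 were tested, 2 were called higher and 2 lower, beside 4.95% of all genes in the gate. Cd5, a brake on antigen receptor signals, fell by 1.80 on the log2 scale (edgeR adjusted p 0.00851), and Cd226, the activating competitor of TIGIT for CD155, rose by 0.67 (adjusted p 0.0107). Cd27, a costimulatory receptor, rose by 1.34 (adjusted p 0.0129), and Cd28 fell by 0.50 (adjusted p 0.0445). Of 8 genes of naive or recirculating cells, 3 fell and 1 rose: Satb1 fell by 0.58, S1pr1, which guides exit from tissue, fell by 0.97, and Il7r rose by 0.39 (adjusted p 0.00829, 0.0101 and 0.0109). Of 14 genes of exhausted and aged T cells, 12 were tested and 2 rose, Id2 by 0.56 and Cxcr6 by 0.39 (adjusted p 0.00607 and 0.0164). Il17f and Il17a, which help to define the gate, fell by 4.81 and 2.28. Apart from these last genes, 10 genes of the receptor, exhaustion and naive lists were called in the whole gate. In its cells without a Cd4 UMI 0 of the 10 were called (adjusted p 0.233 to 0.974), where 0.0209% of 9561 genes were. The sign was the same for 9 of the 10 in these cells, which are a part of the gate that named the 10. Their log2 fold changes shrank to different extents: Cd5 was at -0.06 and Cd28 at 0.03 there, while Id2 was at 0.44, Satb1 at -0.43 and Il7r at 0.24.

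In conventional CD4 cells 0 of the 10 genes were called by edgeR (2 had an unadjusted p below 0.05, and DESeq2 called 0), where 0.396% of 10604 genes were. Pdcd1 was at 124, 95.4 and 88.1 CPM under the p16-DTR label and 75.0, 82.2 and 46.8 in the controls, without overlap (log2 fold change 0.57, SE 0.21, adjusted p 0.321), and 17.4% of genes in this gate did not overlap. Cd40lg was at 147, 191 and 205 against 131, 157 and 138 (log2 fold change 0.33, SE 0.12, adjusted p 0.340), overlapping through p16-DTR 1 and control 2. Ctla4 and Icos had log2 fold changes of -0.04 each, with standard errors of 0.15 and 0.12.

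The conventional CD4 gate held more cells with Gzmk, the gene of granzyme K, in the libraries labelled p16-DTR. Cells with a Gzmk UMI were 45.9%, 33.0% and 31.2% of the gate against 19.5%, 21.7% and 12.1%. Thinned to 3000 UMIs the shares were 36.3%, 24.8% and 20.3% against 11.1%, 14% and 9.52%, with 0.0255% of thinned fibroblasts (0.200% unthinned) as background. Of the 14 genes of exhausted and aged T cells, 2 were called here, both higher, beside 0.396% of all genes: Ccl5, a chemokine of memory T cells, by 1.91 on the log2 scale (edgeR adjusted p 0.0304) and Prdm1, which encodes Blimp-1, by 1.03 (adjusted p 0.0274). Gzmk itself was at a log2 fold change of 1.31 (adjusted p 0.0865). Of the 8 naive genes, 2 fell, Satb1 by 1.20 and Lef1 by 0.85 (adjusted p 0.0359 and 0.0400). In the cells without a Gzmk UMI 0 of these 4 genes were called (adjusted p 0.148 to 0.502), where 0.0598% of 10041 genes were. All 4 had the same sign in these cells, which are a part of the gate that named the 4. Prdm1 was at a log2 fold change of 1.15 there, Ccl5 at 1.30, Satb1 at -0.87 and Lef1 at -0.72. The 6 NK cell markers, among which Eomes is also a T cell gene, summed to 198 to 281 CPM under the p16-DTR label and 86.3 to 109 in the controls. The 6 neutrophil markers summed to 23.7 to 40.7 against 44.5 to 64 and the 6 endothelial markers to 25.6 to 32.3 against 18.2 to 23.5. None of these 3 lists overlapped between the groups, no marker of them was at 0 in all libraries, and their part in the differences was not tested.

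Divided by Gzmk, again after the values were seen, the conventional CD4 cells gave larger Pdcd1 differences on the side without it. In cells without a Gzmk UMI, Pdcd1 was at 102, 113 and 88.2 CPM against 59.2, 71.4 and 38.4 (log2 fold change 0.86, edgeR adjusted p 0.257). Cd274 was at 121, 164 and 143 against 94.1, 103 and 103 (log2 fold change 0.51, adjusted p 0.257), and Cd40lg at 200, 281 and 235 against 135, 176 and 149 (log2 fold change 0.63, adjusted p 0.203). None of the 3 overlapped between the groups, all being higher, as were 7.83% of 10041 genes in these cells. None was called, where 0.0598% of genes were. In cells with a Gzmk UMI, Pdcd1 was at 154, 65.6 and 87.8 against 139, 122 and 109 (log2 fold change -0.31, adjusted p 0.906). The difference between these 2 sides was not tested.

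**Figure D4:**
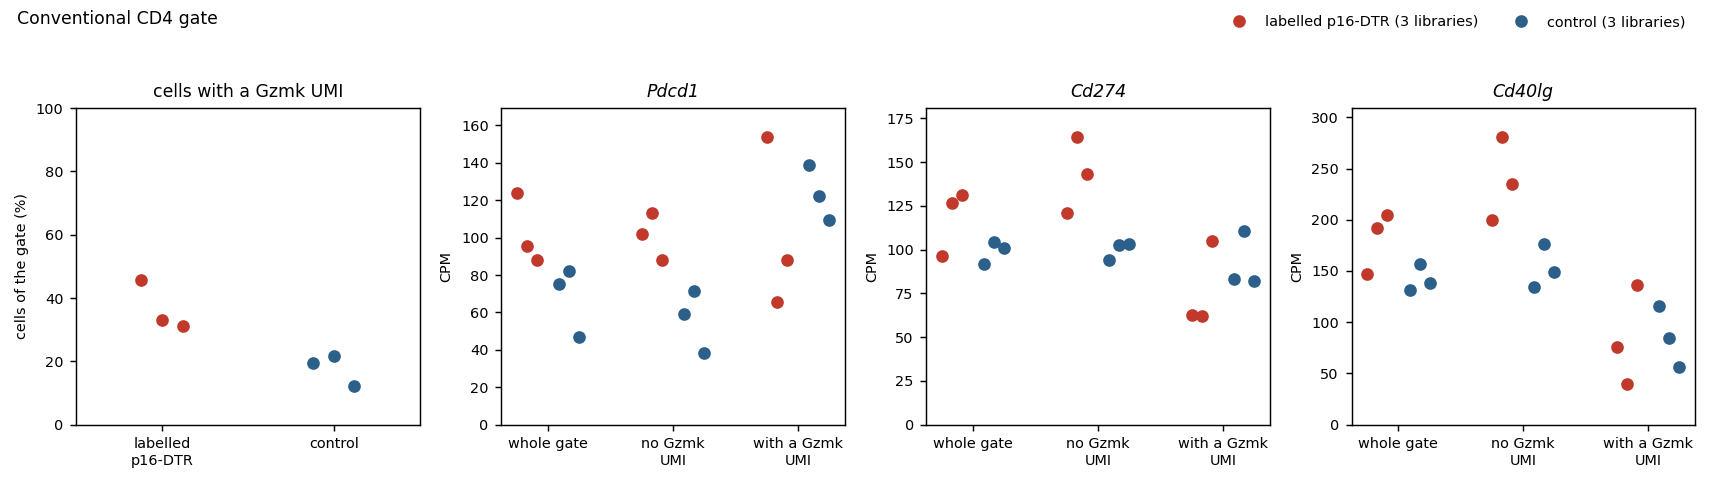
Left, the unthinned share of conventional CD4 cells with a Gzmk UMI in each library; right, levels of the named genes in CPM in the whole gate and in its cells with and without a Gzmk UMI, 1 point per library. Pdcd1 is apart between the groups in the whole gate and in cells without Gzmk, and overlaps in cells with it.

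With the conventional CD4 and type 17 gates taken as 1, Pdcd1 was called. Its levels were 71.0, 60.9 and 68.3 CPM under the p16-DTR label and 39.6, 39.7 and 31.2 in the controls, at a log2 fold change of 0.83 (SE 0.11, edgeR adjusted p 0.0246), where 1.36% of 11900 genes were called. The call was lost without p16-DTR 2 (adjusted p 0.0622), p16-DTR 3 (0.0759), control 2 (0.0604) or control 3 (0.0660), and was kept with the replicate block (0.0316). The type 17 gate, in which Pdcd1 is low, gave 176, 205 and 151 of these cells against 199, 197 and 209, beside 157, 303 and 343 conventional CD4 cells against 128, 152 and 232. Tigit and Ctla4 were not called in the joined gate, at log2 fold changes of 0.43 and -0.26 (adjusted p 0.339 and 0.363).

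Gzmk CD8 cells showed no called difference in any gene: edgeR called 0 of 9615 (526 at an unadjusted p below 0.05) and DESeq2 called 6. Of the 10 genes, 8 were tested and 7 were higher, with a median log2 fold change of 0.26 against 0.00 for all genes. Tigit was at 136, 135 and 139 CPM under the p16-DTR label and 89.1, 128 and 78.9 in the controls, without overlap, as for 10.8% of genes there (log2 fold change 0.49, SE 0.17, adjusted p 0.900). Basophil markers in this gate summed to 1.77 to 4.07 CPM against 0.849 to 1.5, with 1 of the 6 at 0, and their part was not tested. Pdcd1 was at 135, 155 and 112 against 103, 117 and 115, which overlapped (log2 fold change 0.27, SE 0.14, adjusted p 0.913). Tox was at 1377, 1726 and 1221 against 1316, 1449 and 874, also overlapping, and Lag3 at 14.3, 46.7 and 17.4 against 11.9, 18.7 and 21.6, with p16-DTR 2 far above the rest.

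Naive-like CD8 cells, the smallest CD8 gate, had 4 of the 10 genes tested and 0 called (2 at an unadjusted p below 0.05, 0 by DESeq2), where 0.42% of 7389 genes were. Ctla4 was at 146, 329 and 119 CPM against 332, 238 and 405 (log2 fold change -0.74, adjusted p 0.408), and p16-DTR 2 was the only library of its group above a control. Without p16-DTR 2 the log2 fold change was -1.31 and the adjusted p 0.0203. Without p16-DTR 3 it was -0.43 (adjusted p 0.620) and without control 3 -0.56 (0.681). In p16-DTR 2 Cd274 stood at 128 against 31.8 to 50.3 in the other 5, and Cd40lg at 60.5 against 0 to 6.63. Of the other lists, 4 genes were called in this gate. Itgae, which encodes the integrin chain CD103, fell by 1.43 on the log2 scale (edgeR adjusted p 0.0160), and Capg, an actin-capping protein, rose by 2.22 (0.0255). Il2ra, the alpha chain of the interleukin-2 receptor, was at 17.7, 25.3 and 329 CPM against 0, 0 and 1.72 (0.0288), p16-DTR 3 being far above the rest. Il23r, the interleukin-23 receptor, was at 57.4, 73.2 and 14.8 against 0, 1.52 and 5.59 (0.0350). Markers of 3 other cell types stood apart between the groups in this gate. Those of group 2 innate lymphoid cells summed to 28.7 to 47.6 CPM under the p16-DTR label and 18.2 to 27.9 in the controls (3 of 6 at 0 in all libraries), those of platelets to 1.34 to 4.42 against 5.05 to 6.06 (4 at 0) and those of mural cells to 0 to 1.41 against 1.52 to 4.04 (2 at 0). Their part in these differences was not tested.

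In regulatory CD4 cells 0 of 7397 genes were called by edgeR (395 at an unadjusted p below 0.05) and 5 by DESeq2, none of them among the 10. Cd40lg was at 36.8, 22.2 and 29.8 CPM under the p16-DTR label and 57.9, 56.1 and 53.8 in the controls, without overlap, where 11.5% of genes did not overlap (log2 fold change -0.92, SE 0.26, adjusted p 0.864). These levels rest on 177 UMIs in 6 libraries. With other lineages limited to 1 marker per cell the log2 fold change was -1.61 and called (adjusted p 0.0489), and with equal cells per library it was -0.55 (0.890). Epithelial and mural markers were higher without overlap in this gate, at 19.3 to 39.4 against 13.5 to 16.7 and 1.75 to 5.02 against 0 to 1.61 CPM, with 1 and 2 of the 6 at 0, and their part was not tested. Ctla4, Tnfrsf4 and Icos, which were higher in regulatory than in conventional CD4 cells, showed small differences between the groups. The log2 fold change was -0.18 for Ctla4 (SE 0.13), 0.14 for Tnfrsf4 (SE 0.15) and -0.01 for Icos (SE 0.14).

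In gamma-delta cells, where Pdcd1 is highest, its levels were 330, 139 and 294 CPM against 321, 282 and 236, and p16-DTR 2 alone lay below all controls (log2 fold change -0.14, SE 0.26, adjusted p 0.986). Havcr2 was at 31.5, 12.4 and 11.0 against 5.61, 7.32 and 4.08, without overlap, as for 10.9% of genes in a gate where 0 of 8649 were called (log2 fold change 1.67, SE 0.50, adjusted p 0.858). Without p16-DTR 1 the log2 fold change was 1.04, and with equal cells per library it was 2.35. The Havcr2 levels in this gate rest on few UMIs per library. Fibroblast markers in this gate summed to 7.06 to 14 CPM against 14.6 to 28.1, with none at 0. In the other T gate Pdcd1 was at 40.0, 40.7 and 47.8 against 18.0, 10.6 and 27.8, without overlap (log2 fold change 1.1, SE 0.27, adjusted p 0.251), where edgeR called 0 of 9952 genes (874 at an unadjusted p below 0.05), DESeq2 called 66, and 14.8% of genes did not overlap. With equal cells per library the log2 fold change of Pdcd1 was 1.80. The T cell markers of this gate summed to 3515 to 3676 CPM against 3128 to 3206 and the plasma cell markers to 29.4 to 45.6 against 46.4 to 53.7, without overlap. NK cells held 5.13, 4.48 and 4.85 of Lag3 against 0.686, 3.63 and 3.36, without overlap, as for 16.2% of genes in a gate where 0.855% were called (log2 fold change 0.80, SE 0.47, adjusted p 0.578). These Lag3 levels are low and also rest on few UMIs per library. Of the other lists, 2 genes were called in NK cells: Cxcr6, a chemokine receptor of tissue lymphocytes, rose by 1.94 on the log2 scale, and Ikzf2, which encodes Helios, fell by 0.99 (edgeR adjusted p 0.0151 and 0.0250).

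Whether the group difference itself differed between T cell gates was tested for 3 pairs of gates on within-mouse differences of log2 CPM with limma. Of the 22 tests of these genes 0 were called and 3 had an unadjusted p below 0.05, and 0% of the 7379, 9531 and 7323 genes were called. The smallest p was for Cd40lg, whose difference was 1.19 lower on the log2 scale in regulatory than in conventional CD4 cells (a difference of -1.19, p 0.00434, adjusted p 0.824). For Ctla4 the effect was 1.12 higher in Gzmk than in naive-like CD8 cells (adjusted p 0.778).

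Outside T and NK cells, 45 of 150 pairs of gene and gate were tested and edgeR called 0, where 0.443% of 165122 tests over all genes were called. Of the 45, 10 had an unadjusted p below 0.05, a larger share than the 13.4% of all tests, though the pairs share libraries. General capillary cells and fibroblasts gave 8 of the 45 each, and there 23.9% and 21.3% of all genes had such a p. Of the 45 pairs, 3 were higher and 7 lower without overlap between the groups, against 7.26% and 11.9% of all tests (19.1% together). DESeq2 called 3, Cd274 in B cells and general capillary cells and Lag3 in fibroblasts. Among all genes that passed the count filter in these gates, it called 181 of 12534, 1387 of 16034 and 1454 of 17733.

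In B cells Cd274 was at 180, 169 and 191 CPM under the p16-DTR label and 117, 156 and 141 in the controls. The groups did not overlap, as for 20.4% of genes in this gate (log2 fold change 0.42, SE 0.10, edgeR adjusted p 0.198, DESeq2 adjusted p 0.00995), and edgeR called 0.00798% of the genes of this gate. In general capillary cells the order was the other way, at 21.4, 27.1 and 23.7 against 32.8, 29.0 and 34.8 (log2 fold change -0.38, SE 0.09, edgeR adjusted p 0.0770, DESeq2 adjusted p 0.0140). There edgeR called 1.87% of 16034 genes and DESeq2 called 1387. Of the 14 marker lists, 5 did not overlap between the groups in general capillary cells, none with a marker at 0. Myeloid markers summed to 26.8 to 34.0 CPM against 13.1 to 19.1, basophil markers to 358 to 426 against 279 to 329, and those of group 2 innate lymphoid cells to 85.6 to 135 against 159 to 240. Mural and mesothelial markers were lower, at 10.7 to 12.1 against 14 to 20.5 and 1.53 to 1.92 against 2.02 to 3.36. In B cells 1 list did not overlap, the mural markers, at 1.06 to 1.53 against 1.69 to 3.09. Basophil markers in B cells summed to only 1.88 to 3.34 against 1.19 to 2.07. Whether such sums came from other cells or from the gate's own cells was not tested, nor was their part in the Cd274 differences. Arterial cells held 10.6, 6.35 and 10.0 against 19.2, 14.4 and 15 (log2 fold change -0.87, SE 0.28, adjusted p 0.256), and venous cells 16.8, 14.9 and 18.4 against 18.6, 25.5 and 19.3 (log2 fold change -0.32, adjusted p 0.361). In these 3 endothelial gates the p16-DTR libraries lay below all controls, as they did for 20.3%, 9.05% and 12.7% of all genes there. In arterial cells basophil markers summed to 172 to 216 CPM against 151 to 155, with 1 of the 6 at 0. In venous cells they were higher too (232 to 280 against 187 to 202, 1 of the 6 at 0), and the markers of neutrophils (29.1 to 55.0 against 66.2 to 97.7), group 2 innate lymphoid cells (174 to 235 against 241 to 365), B cells (3.34 to 4.90 against 5.89 to 6.95) and platelets (2.09 to 2.96 against 3.00 to 11.1) were lower. Their part was not tested. Lymphatic cells overlapped (log2 fold change -0.75, adjusted p 0.386), and aerocytes, the gas-exchange capillary cells, had the highest endothelial levels at 41.9, 40.5 and 40.8 against 39.6, 35.4 and 51.0 (log2 fold change 0.00). Nonclassical monocytes, with the highest mean Cd274 of the 24 gates, had 226, 205 and 204 against 171, 255 and 190 (log2 fold change 0.05, adjusted p 0.945).

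Havcr2 in nonclassical monocytes was at 435, 449 and 414 CPM against 397, 391 and 364, without overlap, as for 13.6% of genes there, at a log2 fold change of 0.18 (SE 0.07, adjusted p 0.608). In interstitial macrophages it was at 165, 135 and 171 against 113, 132 and 134 (log2 fold change 0.29, adjusted p 0.739). Lag3 in fibroblasts was at 3.92, 4.14 and 4.01 against 5.04, 5.13 and 5.63 (log2 fold change -0.36, SE 0.09, edgeR adjusted p 0.0883, DESeq2 adjusted p 0.0245), a low level read from 2594 UMIs. In fibroblasts edgeR called 0.0169% of 17733 genes and DESeq2 called 1454. Other cell types' markers also stood apart in these 3 gates. In fibroblasts B cell markers summed to 4.44 to 5.65 CPM against 6.67 to 8.47 and plasma cell markers to 115 to 128 against 106 to 110. In interstitial macrophages neutrophil markers summed to 92.9 to 112 against 119 to 269, mural markers to 2.88 to 3.71 against 3.78 to 10.8 and endothelial markers to 22.3 to 26.8 against 13.2 to 21.0. In nonclassical monocytes NK markers summed to 1.07 to 2.54 against 0 to 0.873. None of these lists had a marker at 0 in all libraries. Whether the sums came from other cells or from the gate's own cells, and their part, was not tested.

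The other partners of these receptors, a list of 15 genes, were measured in the same 24 gates. These leave out dendritic cells and alveolar macrophages, which had too few cells in a library, so the order below holds for the 24 gates only. The highest mean levels were in neutrophils for Cd80 (535 ± 101 CPM, SD, n = 6) and in interstitial macrophages for Cd86 (1577 ± 242), the ligands of CTLA-4 and CD28. Pvr, whose product TIGIT binds, led in venous endothelium at 103 ± 12.7, and Nectin2, another TIGIT ligand, in lymphatic endothelium at 312 ± 26.2. Icosl and Cd40, the partners of ICOS and CD40 ligand, led in B cells at 49.7 ± 2.79 and 62.5 ± 5.4. Pdcd1lg2, which encodes PD-L2, reached 29.1 ± 11.7 in regulatory CD4 cells and 28.5 ± 5.83 in B cells, and Fgl1, a ligand of LAG-3, did not exceed a mean of 0.285 in any gate. Of 216 tests of 14 of these genes edgeR called 0, with 32 at an unadjusted p below 0.05. DESeq2 called 2, in aerocytes and general capillary cells, where it called 313 and 1387 of all genes. Over all genes and gates, 0.564% of 249123 tests were called and 12.2% had an unadjusted p below 0.05.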

How the data were processed

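Lung cells of 6 mice were measured with 10x Genomics GEM-X 3' single-cell chemistry, per the labels. The authors deposited 1 matrix of unnormalized UMI counts per library, made with Cell Ranger 8.0.1 on mm10 per the submitters' processing notes; the annotation release, read filters and cell-calling settings are not given in the sources used here. The counts were whole numbers and totals differed between libraries. All columns were used.

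Cells needed 300 detected genes and 500 UMIs, and those above 15% mitochondrial UMIs were dropped. Each cell was gated by UMIs: 14 lineages with 6 markers each (at least 3 detected, other lineages at most 0.5 times as many), 16 subtypes, and for T cells at least 2 UMIs of Cd3d, Cd3e and Cd3g and the subset rules in the report (some of the marker genes used are not reported here). These are marker gates, not the authors' cell types, and no doublet caller was run; cells in the highest 5% of UMIs were left out as an alternative. Counts were summed per library and gate. Gates with at least 20 cells in every library were fitted over all genes with the edgeR 4.0.16 quasi-likelihood test (R 4.3.3, filterByExpr, TMM factors, group as the only term), with Benjamini-Hochberg adjustment within a gate at 0.05. The SE of a log2 fold change is its size divided by the square root of F. Levels in 2 gates were compared over 6 mice by an exact two-sided sign-flip permutation test, and group effects between gates by limma 3.58.1 on log2 CPM (prior count 2). Shares of cells were computed after thinning to 3000 UMIs, leaving out shallower cells. On simulated data with 200 changed genes, edgeR recovered 86% of 2-fold and 99% of 4-fold changes in the type 17 gate, 81% and 98% in conventional CD4 cells, and 66% and 97% in Gzmk CD8 cells. It made 6, 10 and 4 false calls in these gates. The changed genes all had a mean above 20 counts, and the simulated spread followed the dispersion trend alone. Recovery for genes with lower counts was not tested.

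The named genes are the 10 members in every gate, and of 7 further lists the genes called in a T or NK gate (up to 3 a list and gate by smallest p); Cd28 and Gzmk were named beyond that rule, after their values were seen, as were the levels of single ligands. The members and lists were chosen with earlier results of these data known. The settings varied were scaling (RLE, or library size alone), the tool (DESeq2 1.42.0), no filter on low counts, a replicate block, each library left out, stricter cell filters, equal cells per library, and merged or divided CD4 gates. The last divisions were added after the data were seen. Positions are from GENCODE M21 (GRCm38) and promoters from RefSeq.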

Additional observations from a re-analysis of the deposited data

How the results depend on the processing

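The 2 calls in T and NK cells became 14 with no filter on low counts, 4 with other lineages at most 1 marker and 0 with the replicate block, and 0 to 4 with 1 library left out (0 without p16-DTR 3 or control 2, 1 without control 3, 4 without control 1). Outside T and NK cells the 0 calls became 3 with DESeq2, 2 with no filter and 1 without the highest 5% of UMIs, and 0 to 1 with 1 library left out; the last is Tox in venous cells (log2 fold change -3.32 without p16-DTR 3). Over all genes, the 674 calls in T and NK gates became 1037 with DESeq2 and 2858 with no filter, and 182 to 779 with 1 library left out, the lowest without p16-DTR 3; 346, 313 and 230 remained as counts without p16-DTR 2, control 2 and control 3. The 7 level differences between T cell gates became 0 to 0 with 1 mouse left out, since 5 mice cannot give a p below 0.0625, with the same direction in each. The count of 0 for differences between gates was 0 in every setting run. Tigit and Ctla4 in the type 17 gate were lower in 15 of 15 alternatives each and called in 11 of 15, and none of the 17 named differences changed sign in the settings run on the same gates. In most of the 17 the groups did not overlap, so leaving out 1 library could hardly reverse the sign, and the unchanged signs are no separate support. In divided or joined gates, which are other sets of cells, Tigit had the opposite sign in type 17 cells without a Cd4 UMI (0.37) and in the joined gate (0.43), and Pdcd1 in conventional CD4 cells with a Gzmk UMI (-0.31).

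Of the libraries with the same replicate number, those numbered 1 and 3 deviated together (correlations of 0.122 and 0.199 over 11077 genes, the highest of the 9 pairs) and those numbered 2 did not (0.0126, with p16-DTR 2 closest to control 1 at 0.0353). Not every pair was above 0.1, so the numbers were not taken to pair the mice; with the replicate block Tigit and Ctla4 in the type 17 gate had adjusted p values of 0.0512 and 0.0580.

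With 3 mice per group and 27 to 60 regulatory cells per library, low genes such as Cd40lg in that gate (177 UMIs in all) rest on few counts, and the number of cells limits the precision.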

Other observations

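Some gates had fewer than 20 cells in a library and entered no comparison. Plasma cells, 80 in all, held Ctla4 at 252 to 659 CPM (median 489, 2191 UMIs), overlapping the 119 to 405 of naive-like CD8 cells, while T cell markers there summed to 0 to 9.50. Their Cd274 was at 86.5 to 381 (median 318), and their Icos and Cd40lg counts were 2 and 0 UMIs. Group 2 innate lymphoid cells, 87 in all, held Pdcd1 at 59.1 to 306 (median 104, 177 UMIs) and Icos at 94.6 to 688, with 0 UMIs of Lag3. Conventional dendritic cells of both kinds carried Havcr2, at 191 to 451 in 27 cDC1 cells and 182 to 309 in 157 cDC2 cells. Alveolar macrophages, 74 in all, held Cd274 at 140 to 186. These values rest on few cells per library and were not tested between the groups.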
